A study of Mus musculus with 12 samples.

Results

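The cholinergic genes described here are 10 genes taken by symbol from a count table of 24421 genes: the muscarinic acetylcholine receptors Chrm1, Chrm2, Chrm3 and Chrm4, the nicotinic receptor subunits Chrna4, Chrna7 and Chrnb2, the acetylcholine-degrading enzyme gene Ache, the acetylcholine-synthesising enzyme gene Chat, and the choline transporter gene Slc5a7. All 10 were in the table, and 8 had enough counts to be tested. The libraries were made from mouse hippocampus at 2 months of age, with 3 libraries, numbered as biological replicates, for each of 4 genotypes. Every animal, controls included, had been injected with BrdU, which labels cells that copy their DNA. The genotypes were WT (wild type), 5xFAD, p75NTRko, and the animals that combine them, 5xFAD/p75NTRko, called the cross here. 5xFAD mice express human transgenes that carry mutations of familial Alzheimer's disease and are driven in neurons by the Thy1 promoter. The label p75NTRko stands for loss of the receptor p75NTR, which Ngfr encodes. The labels used here give neither the knockout allele, the strain nor the sex. Messenger RNA was read from its 3′ end, so that levels can be set side by side between genes with no length term. Levels are given in CPM, the count of a gene relative to the scaled gene-assigned total of its library.

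Acetylcholine reaches the hippocampus mainly through axons of neurons whose cell bodies lie in the medial septum and the diagonal band, and these neurons are a main site of p75 receptor expression in the forebrain. Chat makes the transmitter from choline that Slc5a7 takes up, and Ache splits it in the synaptic cleft. The muscarinic receptors are single-protein receptors coupled to G proteins: Chrm1 and Chrm3 act through Gq and phospholipase C, Chrm2 and Chrm4 through Gi. The nicotinic receptors are ion channels of several subunits, and Chrna4 with Chrnb2, or Chrna7 alone, form the main brain types. Receptor transcripts are made by hippocampal cells themselves, whereas the transcripts of Chat and Slc5a7 belong mostly to cell bodies outside the dissected tissue. In bulk tissue, fewer cells of a type and less RNA per cell cannot be told apart.

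The genes spanned a wide range of levels, shown library by library in the plot of each gene. Over all libraries Chrm1 was the most abundant, at 111 CPM ± 15.3 (SD, n = 12), which placed it above 84.6% of the 13065 genes tested. Chrm3 followed at 42.2 ± 6.76, Chrna4 at 21.4 ± 7.23, Ache at 13.1 ± 2.27 and Chrnb2 at 8.34 ± 1.35 CPM (SD, n = 12 each). Chrm1 exceeded Chrm3 in 12 of 12 libraries with no overlap of their ranges. Chrm3 exceeded Chrna4 in 12 of 12 libraries, Chrna4 exceeded Ache in 11 of 12 and Ache exceeded Chrnb2 in 12 of 12, although the ranges of these neighbours overlapped. A step of 3.98-fold separated Chrnb2 from Chrm4, the next in order, without overlap. Below that step lay Chrm4 at 2.10 ± 0.942, Slc5a7 at 1.31 ± 0.979, Chrm2 at 1.17 ± 0.855, Chrna7 at 0.760 ± 0.343 and Chat at 0.276 ± 0.295 CPM (SD, n = 12 each), whose ranges overlapped from each to the next. The Gq-coupled receptors Chrm1 and Chrm3 together made up 153 CPM and the Gi-coupled Chrm2 and Chrm4 together 3.27 CPM, as means of 12 libraries.

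**Figure D1:**
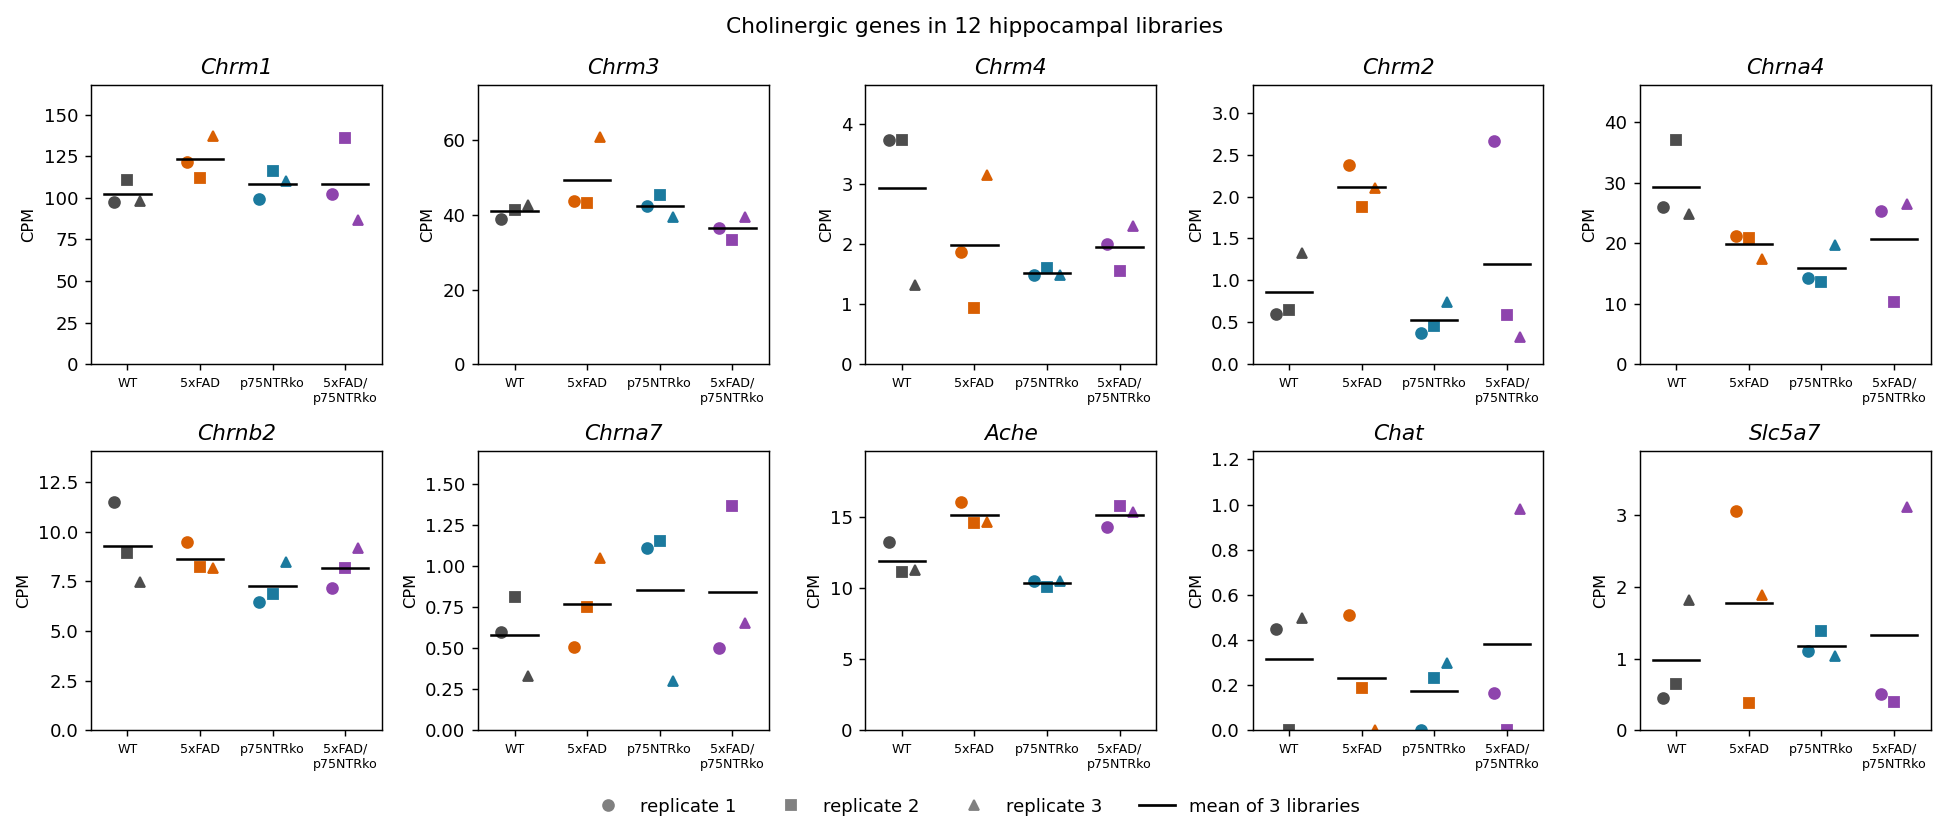
Level of each of the 10 cholinergic genes in CPM (vertical axis, from 0, its own scale in each panel) in the 4 genotypes (horizontal axis); each point is a library, its shape the replicate number, and each bar the mean of 3 libraries. Ache lies at 14.3 to 16.1 CPM in the 6 libraries with the 5xFAD transgenes and at 10.1 to 13.3 CPM in the other 6.

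Library facts that touch these genes were as follows. Gene-assigned counts numbered 4316739 to 6683613 per library, so that 3 counts, taken as the limit of measurement, stood for 0.445 to 0.689 CPM. Ngfr, the gene named by the knockout label, lay at 5.94 to 10.5 CPM in the 6 libraries labelled p75NTRko or 5xFAD/p75NTRko and at 0.166 to 1.94 CPM in the other 6, higher where the label says knockout. Between all receptor-labelled and all other libraries the Ngfr difference was 2.88 on the log2 scale (SE 0.329, adjusted p 0.0045, edgeR). Ngfr thus parted the libraries by label. The labels do not name the deleted part, so these 3′ counts cannot show whether the receptor is lost. That the receptor is lost rests on the labels, and why Ngfr was higher was not tested. Thy1 lay at 1594 to 4014 CPM in the 6 transgene carriers and at 687 to 938 CPM in the non-carriers. Xist, expressed from the inactive X chromosome, split the libraries into 7 at 359 to 439 CPM (all WT, all 5xFAD/p75NTRko, and p75NTRko replicate 1) and 5 at 1.53 to 3.57 CPM (all 5xFAD, and p75NTRko replicates 2 and 3). When 5xFAD is compared with WT, or the cross with 5xFAD, that split coincides with genotype, and both cannot be told apart. Against WT or the cross, p75NTRko differs in class through its replicates 2 and 3, so split and genotype coincide in part. Only p75NTRko holds both classes. In a fit with a mean per genotype, a term for Xist class is therefore set by p75NTRko replicate 1 against replicates 2 and 3. All 16 hippocampal neuron markers were tested, with a summed level of 1175 to 1732 CPM in WT and 1407 to 2268 CPM elsewhere. Markers of adjoining tissue were present too: the 18 thalamic and habenular markers (15 tested) summed to 387 to 1105 CPM and the 12 choroid plexus markers (12 tested) to 181 to 7308 CPM.

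None of the 8 genes passed an adjusted p of 0.05 by edgeR's quasi-likelihood test in any of 8 comparisons (0 of 8 in each), and DESeq2 gave 0 among the 5 to 10 genes to which it assigned an adjusted p, depending on the comparison. Over all 13065 genes tested, the share past that threshold was 0.0536% in 5xFAD against WT, 0% in p75NTRko against WT, 0.0383% in 5xFAD/p75NTRko against 5xFAD, 0% in 5xFAD/p75NTRko against p75NTRko, 0% in 5xFAD/p75NTRko against WT, 0.0383% for the interaction of transgene and receptor label, 0.0153% for all carriers against all non-carriers, and 0.0842% for all receptor-labelled against all other libraries. An unadjusted p under 0.05 was reached in 5xFAD against WT by Ache and Chrm2 (2 of 8, against 13.9% of all genes), in p75NTRko against WT by Chrna4 (1 of 8, against 11.5%), and in 5xFAD/p75NTRko against 5xFAD by Chrm3 (1 of 8, against 5.08%). Ache reached it in 5xFAD/p75NTRko against p75NTRko (1 of 8, against 6.59%) and in 5xFAD/p75NTRko against WT (1 of 8, against 9.95%). Chrm3 and Chrna4 reached it for the interaction (2 of 8, against 9.32%), Ache and Chrm2 for all carriers against non-carriers (2 of 8, against 10.3%), and none for all receptor-labelled against other libraries (0 of 8, against 6.3%). In that last comparison all 8 fold changes were below 0 and 0 of 8 genes were separated, against 0.321%. Their median was -0.20 on the log2 scale, beside 0.0026 over all genes, and those of Slc5a7, Chrm1 and Ache were smaller than their SE. Across the 8 genes the median fold change (log2) was 0.27 in 5xFAD against WT and -0.27 in p75NTRko against WT, beside -0.0036 and -0.00063 over all genes. Those 2 comparisons share their WT libraries, so the values are set side by side only.

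**Figure D2:**
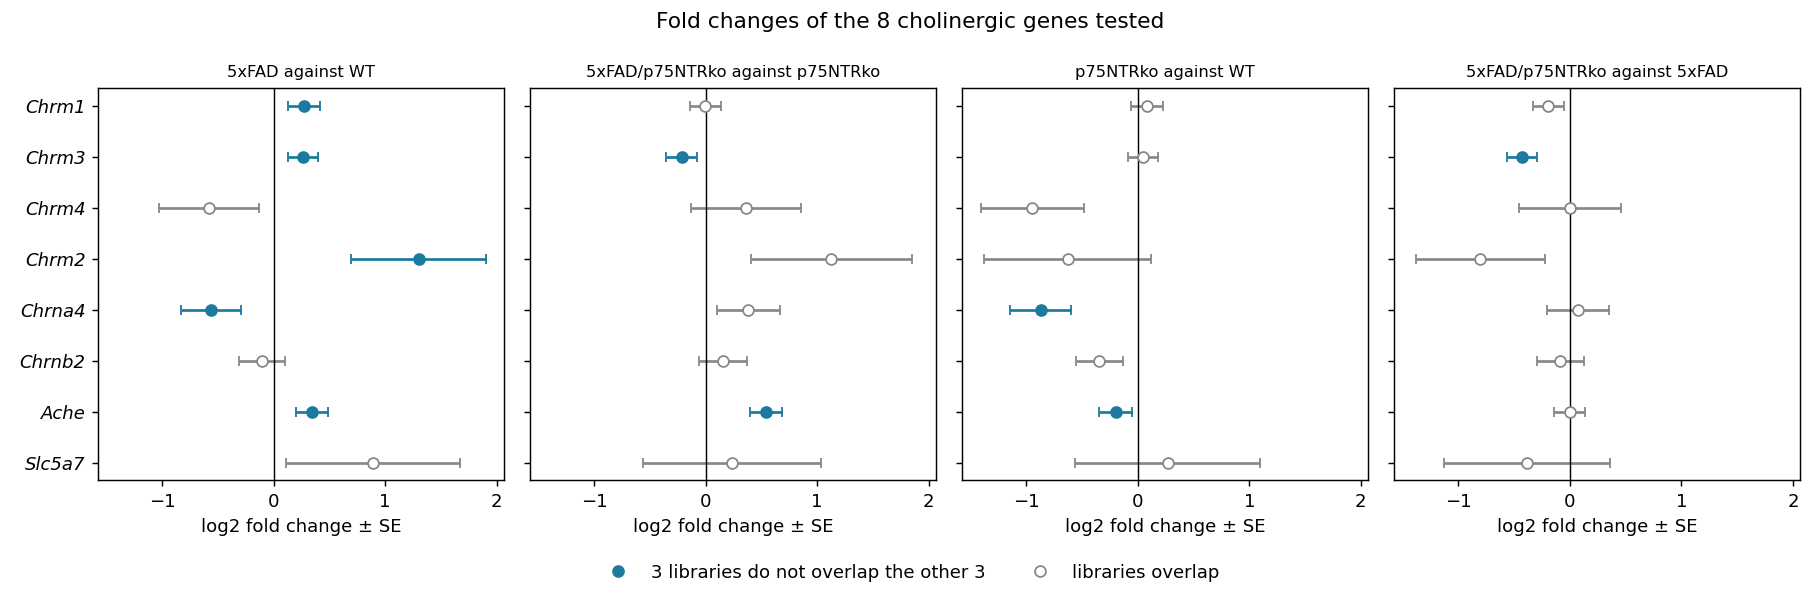
Log2 fold change (horizontal axis) with its standard error for the 8 cholinergic genes tested (rows) in 4 comparisons (panels); filled points mark genes whose 3 libraries do not overlap the other 3. In 5xFAD against WT 5 of 8 points are filled, and Ache is filled on the right of 0 in both panels that compare transgene carriers with non-carriers.

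Ache, the gene of acetylcholinesterase, was higher in libraries with the 5xFAD transgenes. It measured 13.3, 11.2 and 11.3 CPM in WT replicates 1 to 3 and 16.1, 14.6 and 14.7 CPM in 5xFAD. In the libraries labelled p75NTRko it measured 10.5, 10.1 and 10.5 CPM, and in the cross 14.3, 15.8 and 15.4 CPM. Every carrier library lay above every non-carrier library. Such a separation of all 6 from all 6, in either direction, was seen in 1 of the 8 genes and in 0.582% of all genes tested. The average log2 fold change of carriers against non-carriers was 0.44 (SE 0.102), with an adjusted p of 0.149 by edgeR that did not pass. The mean was 15.1 CPM ± 0.714 in carriers and 11.2 ± 1.13 in non-carriers (SD, n = 6 each). The transgene difference was 0.35 (SE 0.143, adjusted p 0.324, edgeR) with the receptor gene as labelled intact and 0.54 (SE 0.146, adjusted p 0.552, edgeR) on the p75NTRko-labelled background, comparisons that share no library. Their difference, tested as the interaction, was 0.19 (SE 0.204, adjusted p 0.789, edgeR). In 5xFAD/p75NTRko against WT, whose 6 libraries are all of the high Xist class, the value was 0.34 (SE 0.142, adjusted p 0.483, edgeR), again without overlap. In that comparison 1 of the 8 genes was separated, Ache, against 11.5% of all genes. In the cross against p75NTRko-labelled libraries 2 of 8 were, Ache higher and Chrm3 lower, against 12.3%. On the log2 scale, 5xFAD/p75NTRko differed from 5xFAD by -0.0018 (SE 0.141).

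The Ache values rest on 44 to 95 counts per library, and the gene shares 98 exonic bases with Gm42456 on the opposite strand. The summed choroid plexus markers ran the other way: they were 323 to 1949 CPM in 5xFAD, 2422 to 5989 CPM in WT and 4457 to 7308 CPM in p75NTRko-labelled libraries, and in cross replicates 2 and 3 they were 181 and 364 CPM. 5xFAD/p75NTRko replicate 1 had 7258 CPM of these markers, above 5 of the 6 non-carriers, and an Ache level of 14.3 CPM. Ttr made up most of the summed choroid plexus markers, with a mean of 2720 CPM over the 12 libraries. Enpp2 followed at 453 CPM and Prlr at 31.1 CPM. The mean log2 level, by contrast, weighs each marker alike. Over the 12 libraries the Pearson r of Ache with the mean log2 level of the choroid plexus markers was -0.70. Each of these markers was detected in every genotype, although in single libraries Kcne2 was at 0 counts in 2 and Slc4a5 in 1. Without 5xFAD/p75NTRko replicate 1 the carrier difference on the p75NTRko-labelled background was 0.58. The part of choroid plexus tissue in the Ache values was not tested.

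The stretch before the RefSeq start of Ache is shown because Ache was the gene that parted carriers from non-carriers. Ache lies on chromosome 5 at 137287519 to 137294466, plus strand, in GRCm38 (the mm10 build named in the submitters' processing notes). The stretch printed runs over the 196 bases before the RefSeq start, chr5:137288058-137288253 (GRCm38.p6, plus strand, 5′ to 3′), and lies outside every exon of the GENCODE M21 annotation. It sits inside the GENCODE span of the gene, which begins further 5′ than the RefSeq start, so it is intronic for the longest extent of that annotation. Capitals mark the GC box GGGCGG, the core of the sequence bound by Sp1-type factors.
Ache before the RefSeq start: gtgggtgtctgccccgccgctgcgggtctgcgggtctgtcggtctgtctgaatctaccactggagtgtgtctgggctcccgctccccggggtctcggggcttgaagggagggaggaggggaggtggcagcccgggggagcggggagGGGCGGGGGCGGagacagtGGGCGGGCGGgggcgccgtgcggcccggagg
The stretch holds the letters GGGCGG, or CCGCCC on the other strand, at 4 places, of which the last pair overlap. Of 32851 RefSeq promoter windows of the same length and place, 30.9% hold at least 1 such match and 3.17% hold 4 or more. Its G and C content is 75.5%. The match is a description of the letters and was not set against binding data.

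Chrm1, the main muscarinic receptor of hippocampal pyramidal cells, had 505 to 742 counts per library. It measured 97.6, 111 and 98.4 CPM in WT and 121, 112 and 137 CPM in 5xFAD. In p75NTRko-labelled libraries it measured 99.2, 116 and 110.1 CPM, and in the cross 102, 136 and 86.8 CPM. The lowest 5xFAD library stood just above the highest WT library, and the cross libraries spanned almost the whole range of the gene. The log2 fold change in 5xFAD against WT was 0.27 (SE 0.140, adjusted p 0.400, edgeR). With Xist class as a term in the fit it was 0.084 (adjusted p 0.974, edgeR). That term is set by p75NTRko replicate 1 against replicates 2 and 3, so it cannot part Xist class from genotype here. The summed hippocampal neuron markers were 1175 to 1732 CPM in WT and 1855 to 2268 CPM in 5xFAD. Over 12 libraries Chrm1 had a Pearson r of 0.59 with their mean log2 level. It had -0.63 with that of the 12 neocortex and subiculum markers (12 tested), -0.51 with the striatal and -0.45 with the thalamic markers. The part of tissue make-up in the Chrm1 values was not tested.

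Chrm3, the other Gq-coupled receptor, measured 38.8, 41.3 and 42.7 CPM in WT and 43.6, 43.1 and 60.9 CPM in 5xFAD. It measured 42.4, 45.2 and 39.5 CPM with the p75NTRko label and 36.6, 33.3 and 39.3 CPM in the cross. The cross was thus the lowest genotype, below every 5xFAD and every p75NTRko-labelled library, and 5xFAD replicate 3 stood apart at the top. Between the cross and 5xFAD it was the 1 gene of 8 whose libraries did not overlap, against 11.2% of all genes. In that comparison the log2 fold change was -0.43 (SE 0.137, adjusted p 0.698, edgeR), and the interaction was -0.48 (SE 0.193, adjusted p 0.493, edgeR). Without 5xFAD replicate 3 these became -0.25 (adjusted p 0.999) and -0.30 (adjusted p 0.674, edgeR). The ratio of Chrm1 to Chrm3 was 2.50 ± 0.192 in WT, 2.55 ± 0.269 in 5xFAD, 2.56 ± 0.224 with the p75NTRko label and 3.03 ± 0.958 in the cross (mean ± SD, n = 3 each), with 5xFAD/p75NTRko replicate 2 the highest at 4.08.

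The Gi-coupled receptors were measured from few reads. Chrm2, an autoreceptor on cholinergic terminals and also a receptor of interneurons, had 4, 4 and 8 counts in WT, 14, 10 and 10 in 5xFAD, 2, 2 and 5 with the p75NTRko label and 16, 3 and 2 in the cross. Its 5xFAD libraries all lay above the WT libraries, while in CPM the cross held both the highest and the lowest library of all. The genotype means were 0.857 ± 0.406, 2.12 ± 0.249, 0.524 ± 0.194 and 1.19 ± 1.28 in that order (mean ± SD, n = 3 each). On the log2 scale the difference was 1.30 for 5xFAD against WT (SE 0.603, adjusted p 0.357, edgeR) and 1.21 for carriers against non-carriers (SE 0.470, adjusted p 0.424, edgeR). Leaving out 5xFAD/p75NTRko replicate 1 brought the second to 0.51 (adjusted p 0.745, edgeR), and Xist class as a term brought the first to 0.58 (adjusted p 0.972, edgeR). The Xist term was again set by p75NTRko replicate 1 against replicates 2 and 3. Chrm4, the receptor best known from striatal projection neurons, had 25, 23 and 8 counts in WT, 11, 5 and 15 in 5xFAD, 8, 7 and 10 with the p75NTRko label and 12, 8 and 14 in the cross. WT replicates 1 and 2 stood above all others and WT replicate 3 among the lowest, so the genotypes overlapped. Its smallest p was in p75NTRko against WT, with -0.94 on the log2 scale (SE 0.463, adjusted p 0.449, edgeR).

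Chrna4, the subunit of the high-affinity nicotinic receptor, varied most among the 5 genes with at least 30 counts in every library, over 1.85 log2 units. It measured 26.0, 37.1 and 24.8 CPM in WT and 21.2, 20.8 and 17.4 CPM in 5xFAD. In p75NTRko-labelled libraries it measured 14.3, 13.5 and 19.7 CPM, and in the cross 25.3, 10.3 and 26.5 CPM. WT lay above 5xFAD and above p75NTRko-labelled libraries with no overlap, and the cross held both the lowest library and 2 libraries within the WT range. The log2 fold change in p75NTRko against WT was -0.87 (SE 0.276, adjusted p 0.330, edgeR) and the interaction was 0.94 (SE 0.392, adjusted p 0.495, edgeR). Absence of overlap between WT and p75NTRko-labelled libraries was seen in 2 of the 8 genes, Chrna4 and Ache, against 16.4% of all genes. In 5xFAD against WT it was seen in 5 of 8, against 19.6%: Ache, Chrm1, Chrm2 and Chrm3 higher, Chrna4 lower.

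Thalamic neurons are rich in Chrna4, and markers of thalamus and striatum were higher in WT than in either single mutant, without overlap. The summed thalamic and habenular markers were 668 to 952 CPM in WT, 453 to 549 CPM in 5xFAD, 433 to 443 CPM with the p75NTRko label and 387 to 1105 CPM in the cross. The 15 striatal markers (12 tested) summed to 244 to 304 CPM in WT and to 157 to 205 CPM in the other 9 libraries, with Drd2 and Gpr6 at 0 counts in every library and Gbx2, of the thalamic list, at 0 in 5xFAD. Over the 12 libraries, which share tissue and library type, Chrna4 had a Pearson r of 0.77 with the mean log2 level of the thalamic markers, 0.85 with the striatal and -0.67 with the hippocampal neuron markers. 5xFAD/p75NTRko replicate 2, the lowest library for Chrna4, was also the lowest for the thalamic and striatal sums. 5xFAD/p75NTRko replicate 3 had 26.5 CPM of Chrna4, above WT replicates 1 and 3. Its thalamic markers summed to 535 CPM and its striatal markers to 199.7 CPM, below every WT library. Its neocortex and subiculum markers summed to 648 CPM, the highest of the 12 libraries, beside 426 to 643 CPM in WT. Over the 12 libraries Chrna4 had a Pearson r of 0.62 with the mean log2 level of the neocortex and subiculum markers. The part of adjoining tissue in the Chrna4 values was not tested.

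**Figure D3:**
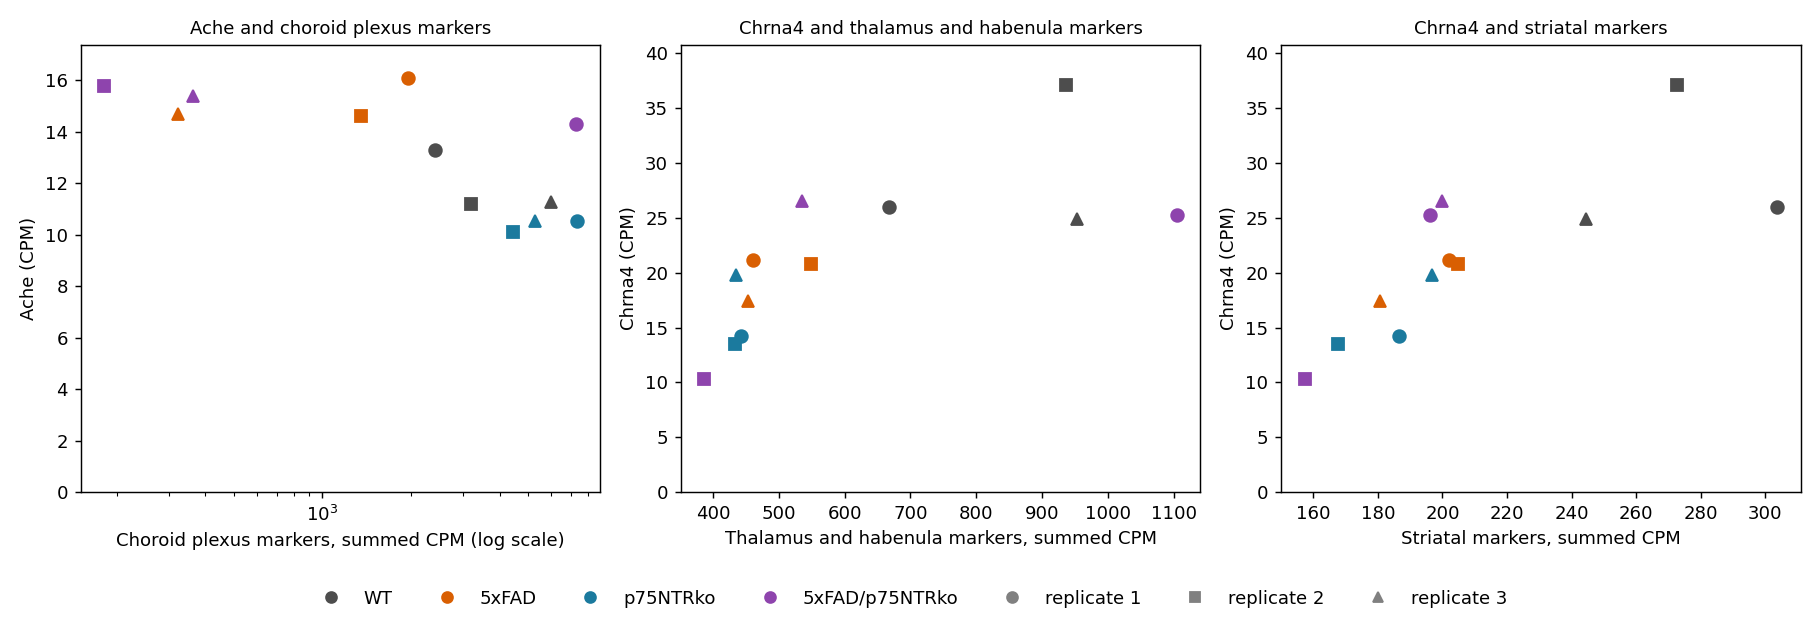
Level in CPM (vertical axes, from 0) of Ache against the summed choroid plexus markers (left, logarithmic horizontal axis) and of Chrna4 against the summed thalamic and habenular markers (middle) and striatal markers (right), 1 point per library, coloured by genotype, its shape the replicate number. 5xFAD/p75NTRko replicate 1 combines 7258 CPM of choroid plexus markers with an Ache level of 14.3 CPM, and 5xFAD/p75NTRko replicate 2 is lowest for Chrna4 and for both other marker sums.

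Chrnb2, the partner subunit of Chrna4, measured 11.5, 8.91 and 7.45 CPM in WT, 9.49, 8.25 and 8.19 CPM in 5xFAD, 6.48, 6.89 and 8.46 CPM with the p75NTRko label and 7.15, 8.18 and 9.17 CPM in the cross. All 4 genotypes overlapped. The log2 fold change with the smallest p was -0.35 in p75NTRko against WT (SE 0.210, adjusted p 0.536, edgeR), and it was -0.16 (adjusted p 0.841, edgeR) without WT replicate 1 and -0.52 (adjusted p 0.830, edgeR) with Xist class as a term. Here too p75NTRko replicate 1 against replicates 2 and 3 sets the Xist term. The ratio of Chrna4 to Chrnb2 was 3.25 ± 0.955 in WT, 2.29 ± 0.204 in 5xFAD, 2.17 ± 0.186 with the p75NTRko label and 2.56 ± 1.17 in the cross (mean ± SD, n = 3 each), and over all libraries it ran from 1.26 to 4.16. Chrnb2 lies on chromosome 3 at 89746195 to 89764632 on the minus strand and shares 1365 exonic bases with Adar on the opposite strand. Adar, an RNA-editing enzyme gene, stood at 58.0 to 89.5 CPM. Whether counting used the strand is not stated, so reads of this pair may not be fully told apart.

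Chrna7, the subunit of the calcium-permeable homomeric receptor, did not pass the filter on low counts. It had 4, 5 and 2 counts in WT, 3, 4 and 5 in 5xFAD, 6, 5 and 2 with the p75NTRko label and 3, 7 and 4 in the cross. Its 50 counts in all correspond to 0.728 CPM, with a 95% exact Poisson interval of 0.540 to 0.960 that covers counting error only. In a fit without the filter its smallest p over the 8 comparisons was 0.514 (edgeR), in 5xFAD/p75NTRko against WT. The log2 fold change there was 0.47 (SE 0.715, adjusted p 0.882, edgeR). With so few counts a difference could hardly be detected, and why they were few was not tested.

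Chat and Slc5a7, the genes of the presynaptic cholinergic neuron, were measured from few reads. Chat had 3, 0 and 3 counts in WT, 3, 1 and 0 in 5xFAD, 0, 1 and 2 with the p75NTRko label and 1, 0 and 6 in the cross. All but 1 of these libraries stood at or under 3 counts, and the 20 counts in all correspond to 0.291 CPM (95% exact Poisson interval 0.178 to 0.450, counting error only). Slc5a7, which had 3, 4 and 11 counts in WT, 18, 2 and 9 in 5xFAD, 6, 6 and 7 with the p75NTRko label and 3, 2 and 19 in the cross, passed the filter. Its range within WT, within 5xFAD and within the cross was wider than the distance between any genotype means. Its smallest p came from 5xFAD and WT, which differed by 0.89 log2 units (SE 0.777, adjusted p 0.609, edgeR). This was 0.20 without 5xFAD replicate 1, 0.54 without WT replicate 1 and 1.67 without WT replicate 3. The highest library for both Chat and Slc5a7 was 5xFAD/p75NTRko replicate 3. Slc18a3, the vesicular acetylcholine transporter, which overlaps Chat on the same strand of chromosome 14 but shares 0 exonic bases with it, had 0 to 2 counts per library, Lhx8 had 8 counts over all libraries, and Gbx1 had 0. These belong to a list of 7 cholinergic neuron markers, of which 4 stood at or under 3 counts in every library. The 3 tested members, which other brain cells express too, were present: Zic4 had 20 to 147 counts per library, Ecel1 5 to 47 and Isl1 0 to 17. The list summed to 13.3 to 29.6 CPM in WT, 7.98 to 15.1 CPM in 5xFAD, 9.65 to 12.6 CPM with the p75NTRko label and 6.81 to 16.8 CPM in the cross.

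Of 57 further genes of cholinergic transmission, 39 were tested and 0 passed the adjusted threshold in any of the 8 comparisons by edgeR, the smallest adjusted p being 0.216. Among 14 other receptor genes, the muscarinic Chrm5 and nicotinic subunits, only Chrna5 and Chrna1 were tested. The rest had at most 9 counts in any library. Chrna5, an accessory subunit, averaged 2.76 CPM ± 0.591 in WT, 4.33 ± 1.12 in 5xFAD, 4.10 ± 0.452 with the p75NTRko label and 3.13 ± 1.18 in the cross (mean ± SD, n = 3 each), with an interaction of -1.02 (SE 0.468, adjusted p 0.528, edgeR). Chrna1, the subunit of the muscle receptor, averaged 1.11 CPM ± 0.162 in WT, 1.48 ± 0.888 in 5xFAD, 2.11 ± 0.710 with the p75NTRko label and 2.27 ± 1.08 in the cross (mean ± SD, n = 3 each), a difference of 0.76 log2 units between receptor-labelled and other libraries (SE 0.361, adjusted p 0.775, edgeR).

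All 8 receptor chaperones and Ly6-type modulators were tested. The median of their fold changes on the log2 scale was -0.13 in 5xFAD and -0.093 in p75NTRko-labelled libraries, each against WT, beside -0.0036 and -0.00063 over all genes. An unadjusted p under 0.05 by edgeR was reached by 3 of 8 in 5xFAD against WT (13.9% of all genes) and by 2 of 8 in p75NTRko against WT (11.5% of all genes), all lower than WT. Lypd6b, a membrane-anchored modulator of nicotinic receptors, averaged 12.2 CPM ± 1.10 in WT, 8.64 ± 1.98 in 5xFAD, 6.55 ± 1.33 with the p75NTRko label and 12.1 ± 2.48 in the cross (mean ± SD, n = 3 each). Its interaction was 1.36 (SE 0.317, adjusted p 0.305, edgeR), and WT and the cross each lay above both single mutants without overlap. Lypd6 averaged 28.8 CPM ± 3.28 in WT, 22.3 ± 2.13 in 5xFAD, 23.7 ± 1.12 with the p75NTRko label and 26.3 ± 5.13 in the cross (mean ± SD, n = 3 each), with an interaction of 0.53 (SE 0.217, adjusted p 0.495, edgeR). Tmem35, the nicotinic receptor chaperone also called NACHO, averaged 516 CPM ± 139 in WT, 386 ± 51.7 in 5xFAD, 391 ± 34.6 with the p75NTRko label and 389.7 ± 45.5 in the cross (mean ± SD, n = 3 each). Against WT it stood at -0.42, -0.40 and -0.41 on the log2 scale in these 3 genotypes (adjusted p 0.302, 0.380 and 0.475, edgeR), with overlapping libraries in each.

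Of 13 genes of acetylcholine and choline handling, 7 were tested. Slc44a5, a choline transporter-like protein gene, averaged 76.4 CPM ± 12.5 in WT, 98.0 ± 0.723 in 5xFAD, 117 ± 17.3 with the p75NTRko label and 91.2 ± 25.7 in the cross (mean ± SD, n = 3 each). Its smallest p was for p75NTRko against WT, at 0.62 (SE 0.172, adjusted p 0.263, edgeR). Slc44a1, a choline transporter of the plasma membrane, averaged 56.1 CPM ± 4.08 in WT, 50.3 ± 8.29 in 5xFAD, 46.4 ± 7.48 with the p75NTRko label and 40.2 ± 3.65 in the cross (mean ± SD, n = 3 each), where it stood at -0.48 against WT (SE 0.142, adjusted p 0.412, edgeR). Chkb, a choline kinase, averaged 10.2 CPM ± 0.427, 7.09 ± 1.80, 8.71 ± 1.38 and 10.4 ± 0.229 in the same order (mean ± SD, n = 3 each), with an interaction of 0.76 (SE 0.288, adjusted p 0.476, edgeR).

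The 22 genes of muscarinic signalling were all tested. The fold change against WT was positive for 17 of 22 in 5xFAD, 15 of 22 with the p75NTRko label and 16 of 22 in the cross. The medians were 0.14, 0.083 and 0.11 on the log2 scale, beside -0.0036, -0.00063 and 0.0042 over all genes, and all 3 comparisons share the WT libraries. Hippocampal neuron markers summed to 1175 to 1732 CPM in WT, 1855 to 2268 CPM in 5xFAD, 1946 to 2124 CPM with the p75NTRko label and 1407 to 2095 CPM in the cross, and their part in these values was not tested. Gnaq, the Gq subunit that couples Chrm1 and Chrm3, averaged 357 CPM ± 69.7 in WT, 496 ± 33.8 in 5xFAD, 449 ± 21.4 with the p75NTRko label and 449.7 ± 69.4 in the cross (mean ± SD, n = 3 each). WT was the lowest genotype, and the differences from it were 0.47, 0.33 and 0.33 on the log2 scale (adjusted p 0.224, 0.384 and 0.483, edgeR). Rgs14, a regulator of G protein signalling known from CA2 neurons, averaged 150.5 ± 25.3, 225 ± 41.4, 214 ± 9.88 and 190.3 ± 43.7 CPM in the same order (mean ± SD, n = 3 each). It stood at 0.58 in 5xFAD (SE 0.164, adjusted p 0.216) and 0.51 with the p75NTRko label (SE 0.164, adjusted p 0.331, edgeR), each against WT. Rgs4, an inhibitor of Gq and Gi signalling, had an interaction of 1.16 (SE 0.348, adjusted p 0.379, edgeR), with means of 367 ± 126 in WT, 243 ± 28.9 in 5xFAD, 215 ± 15.9 with the p75NTRko label and 318 ± 124 CPM in the cross (mean ± SD, n = 3 each).

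The 8 tested genes did not vary as a unit. Their pairwise Pearson r of log2 CPM over 12 libraries ran from -0.53 (Chrm1 with Chrna4) to 0.56 (Chrm4 with Chrnb2), with 0.46 for the receptor partners Chrna4 and Chrnb2 and 0.34 for Chrm1 and Chrm3. Each was also set against the other 13064 genes tested, and the closest 2 are named with r over the 12 libraries, which share tissue and library type. For Ache they were Rc3h1 at 0.91 and Basp1 at 0.91, for Chrm1 Chd4 at 0.92 and Gdap10 at 0.92, and for Chrm3 Cfap97 at 0.93 and the serotonin receptor gene Htr1a at 0.85. For Chrm2 they were Sltm at 0.93 and Dzip3 at 0.92, and for Chrm4 Evi5 at 0.94 and Tspan17 at 0.90. For Chrna4 they were Col26a1 at 0.92 and Unc13c at 0.92, for Chrnb2 Kcnv1 at 0.91 and Rnf167 at 0.89, and for Slc5a7 Wdr48 at 0.81 and Mipep at 0.78. These values are the highest of many and are given as descriptions.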

How the data were processed

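Per the labels' protocols, total RNA (integrity number over 7) went into 3′ mRNA libraries (QuantSeq, forward) with 14 amplification cycles and sequenced on an Illumina instrument. The authors deposited 1 table of raw counts per gene symbol. Per the submitters' processing notes, FastQC, HISAT2, SAMtools, HTSeq and edgeR were used with mm10; versions, annotation and strand setting are not given in the sources used here. The table's 5 summary lines entered neither totals nor tests; reads in no feature were 28.9% to 33.5% and reads assigned to genes 32.2% to 38.5% of all reads. Intervals cover counting error only, since amplified reads carry no molecular identifiers. Positions came from GENCODE M21 and promoter sequence from RefSeq (GRCm38.p6), which held 9 of the 10 genes.

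The tests used edgeR 4.0.16 under R 4.3.3: filterByExpr by genotype, TMM scaling (factors 0.975 to 1.03), and a quasi-likelihood fit of all 12 libraries with a mean per genotype, adjusted by Benjamini-Hochberg over 13065 genes with a threshold of 0.05. CPM used scaled gene-assigned totals, and log2 CPM a prior count of 2. The procedure was tested on simulated data. Alternatives were DESeq2 1.42.0, other scaling and filters, only the compared genotypes, a replicate block, Xist class, and each library left out. Libraries within a genotype had Spearman correlations of 0.973 to 0.990, and none were as alike as counting noise alone would make them (chi-square per degree of freedom at least 2.97). P-values measure the spread between libraries as labelled. Genes and lists were chosen with earlier results of these data known. Fold changes are printed for a gene in each comparison with an unadjusted p under 0.05, or in that with its smallest p; of further lists the 3 genes with the smallest p are named. The Ache interaction, its values in comparisons side by side, and Adar were added after values were seen.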

Additional observations from a re-analysis of the deposited data

How the results depend on the processing

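The count of cholinergic genes past the threshold was 0 in each of the 8 comparisons and stayed 0 in all 149 recomputed counts over 19 alternatives. Of 14 fold changes followed, 256 alternative values kept their direction and 0 reversed, and none passed. Settings that leave out a library of a genotype not compared could hardly reverse a value. Ache in 5xFAD against WT, for example, stayed at 0.35 without p75NTRko replicate 1. For Ache in carriers against non-carriers the value lay between 0.42 (without WT replicate 3) and 0.49 (without WT replicate 1), with adjusted p-values of 0.105 to 0.404. DESeq2 gave no adjusted p for the fold changes of Chrm2 and Slc5a7 that were followed, and a mean of at least 50 counts left Chrm2, Chrm4, Chrnb2 and Slc5a7 untested. With the replicate block, Ache in that comparison had 0.44 (adjusted p 0.295, edgeR). Same-numbered libraries did not deviate together (correlations of -0.42 to 0.14 over 18 pairs, 2 of them over 0.1, and 2 of 12 libraries were closest to their own number). No pairing by number was thus seen, although deviations from means of 3 libraries cannot exclude one. The block gave 0 cholinergic genes in each comparison. Counts over all genes moved more: 5xFAD against WT gave 7 genes, 102 by DESeq2 and 0 with Xist class as a term. The Xist term rests on p75NTRko replicate 1 against replicates 2 and 3, since no other genotype holds both classes. Carriers against non-carriers gave 2 and 72 by DESeq2, p75NTRko against WT 0 and 54, and 5xFAD/p75NTRko against WT 0 and 31. All receptor-labelled against other libraries gave 11, 39 by DESeq2 and 1 without 5xFAD replicate 1. 5xFAD/p75NTRko against 5xFAD gave 5, 22 by DESeq2 and 0 with the block, the interaction 5, 25 by DESeq2 and 1 with Xist class, and 5xFAD/p75NTRko against p75NTRko 0 and 25 without 5xFAD/p75NTRko replicate 1. Low counts limit Chat, Chrna7, Chrm2 and Slc5a7, which had at most 19 counts in any library.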
